A study of Mus musculus with 2 samples.

Results

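Among 48h-EpiLCs, the cells with the highest summed UMIs of 6 p53 target genes were described here. EpiLCs are epiblast-like cells, the in vitro counterpart of the formative epiblast, and were sampled after 48 h of differentiation. The score of a cell was its UMIs (unique molecular identifiers, counted transcripts) of Mdm2, Trp53inp1, Ddit4l, Ccng1, Cdkn1a and Phlda3 per 10000 UMIs. The 5% of cells with the highest score, 470 of 9400, were the members, and the 50% with the lowest score, 4700 cells, were the comparison cells. The members were thus chosen by measured values of these 6 genes, so the levels of these genes describe the choice and are no result. The name p53-active stands for that score, and p53 protein was not measured.

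The study held 2 scRNA-seq libraries of mouse cells of the ICR strain, 1 of ESCs in serum/LIF on feeder cells (0 h) and 1 of 48h-EpiLCs. Each was mixed from equal numbers of WT cells, marked by tdTomato from the ROSA mT/mG reporter, and of Cnot8 KO cells, which lack this deadenylase of the Ccr4-Not complex. KO ESCs came from blastocysts of a mouse strain made with CRISPR and were grown from a picked colony, and which or how many KO lines entered the libraries is not given in the sources used here. The genotype field of the labels reads wild type for both libraries although their titles name both lines. EpiLCs were made from ESCs in 2i/LIF with activin A, bFGF and KSR on Matrigel. With 1 library per stage, no difference could be checked in a replicate, cells are not replicates, and no p-value is given. WT and KO refer here to cells annotated by their cluster from tdTomato, not genotyped one by one. The mRNA of Cnot8 was at 48.2 CPM (UMIs per 1000000 UMIs of a group) in WT and 67.6 CPM in KO comparison cells, and since 3′ reads lie outside the edited exon this level does not check the KO.

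p53 is a transcription factor that MDM2 keeps at low levels by ubiquitination. When DNA damage or other stress releases it, it binds response elements near its target genes, which stop the cell cycle, repair DNA or start apoptosis, and among which Mdm2 itself closes a negative feedback loop. In pluripotent cells p53 is abundant, and it removes cells of low fitness from the early epiblast. Of the 6 score genes, Mdm2 encodes the ubiquitin ligase of p53, Cdkn1a the CDK inhibitor p21, Ccng1 cyclin G1, Trp53inp1 a p53 cofactor, Phlda3 an inhibitor of AKT, and Ddit4l an inhibitor of mTORC1. On GRCm38, Mdm2 lies at chr10:117688875-117710758, Trp53inp1 at chr4:11156431-11174379, Ddit4l at chr3:137621612-137628333, Ccng1 at chr11:40748552-40755311, Cdkn1a at chr17:29090976-29100727 and Phlda3 at chr1:135766119-135769136, and none of them overlaps another counted gene.

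To show what a p53 response element looks like at these genes, promoter windows from RefSeq (GRCm38.p6, 250 bases before to 50 after each start) were searched for a pair of adjoining 10-base p53 sites. The core C and G of each had to match, and up to 2 other bases could differ. The consensus is its own reverse complement, so both strands were covered. Of 32851 windows, 107 (0.326%) held a match. The score genes had 6 windows for 5 genes, of which 2 held a match, those of Ccng1 and Cdkn1a. Of 50 other listed p53 target genes, 38 had windows, and 3 of these 56 windows (5.36%) held a match. Among the 105 genes that were at least 2-fold higher in the members, which are described further on, 89 had windows, and 2 of 118 (1.69%) held a match, against 23 of 5972 windows (0.385%) over all genes compared. A match is a run of letters, not a measured binding site. The matches at both score genes and at 2 of the target genes are shown with the 20-base match in capitals, 5′ to 3′ on the strand of the gene. The match began 195 bases before the start of Ccng1 and 51 before that of Cdkn1a, each with 1 mismatch, 117 bases before the start of Rps27l with 1 mismatch, and 63 before that of Zfp365 with 2. The stretches shown, each a match with its flanks, are chr11:40755442-40755501 (minus strand), chr17:29090908-29090967 (plus), chr9:66946276-66946335 (plus) and chr10:67912686-67912745 (minus).
Ccng1: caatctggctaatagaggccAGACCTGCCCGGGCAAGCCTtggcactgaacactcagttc
Cdkn1a: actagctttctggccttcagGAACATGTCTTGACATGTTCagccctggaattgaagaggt
Rps27l: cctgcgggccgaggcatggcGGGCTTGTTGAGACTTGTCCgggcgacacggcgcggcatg
Zfp365: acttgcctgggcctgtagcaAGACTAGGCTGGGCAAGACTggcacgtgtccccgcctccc

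In the 48h-EpiLC library 12427 barcodes carried 163771168 UMIs, and the 9400 cells kept had at least 1000 genes and at most 10% mitochondrial UMIs. In the ESC library 13184 barcodes carried 144584246 UMIs, and 11054 cells were kept. The libraries shared 41 barcodes, and no member was among them. Members had a median of 13314.5 UMIs against 15274 in comparison cells, and 3.47% mitochondrial UMIs against 3.05%. The part of this difference in depth in the results was not tested, and the results after thinning are given where they differ. In the members, markers of EpiLCs were at levels close to those of the comparison cells or lower. Pou5f1 was at 81.9 CPM against 95.6, Sox2 at 115 against 105, Otx2 at 42.6 against 47.9, Fgf5 at 42.7 against 46.6 and Dnmt3b at 378 against 541. None of the 8 feeder fibroblast markers, the 8 markers of primitive endoderm or the 8 of mesendoderm reached 20 CPM. The fibroblast markers summed to 12.9 CPM in members and 9.93 CPM in comparison cells with 3 of 8 at 0 in members, those of primitive endoderm to 7.28 and 4.37 CPM with 1 at 0, and those of mesendoderm to 13.9 and 19.3 CPM. The 7 markers of the 2-cell-like state summed to 27.7 CPM in members and 2.98 CPM in comparison cells, and the small cluster that holds them is described at the end.

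The score ran from 14.8 to 46.4 among the members with a median of 17.8. It was 0 to 5.49 in the comparison cells, median 3.37, and 106 of these cells (2.26%) had no UMI of any score gene. Scores formed a continuous tail with no gap at the limit. The 10 cells just inside had 14.8017 to 14.8773, and the 10 just outside 14.7263 to 14.7906. A member carried 3 to 84 score UMIs, median 25.

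**Figure D1:**
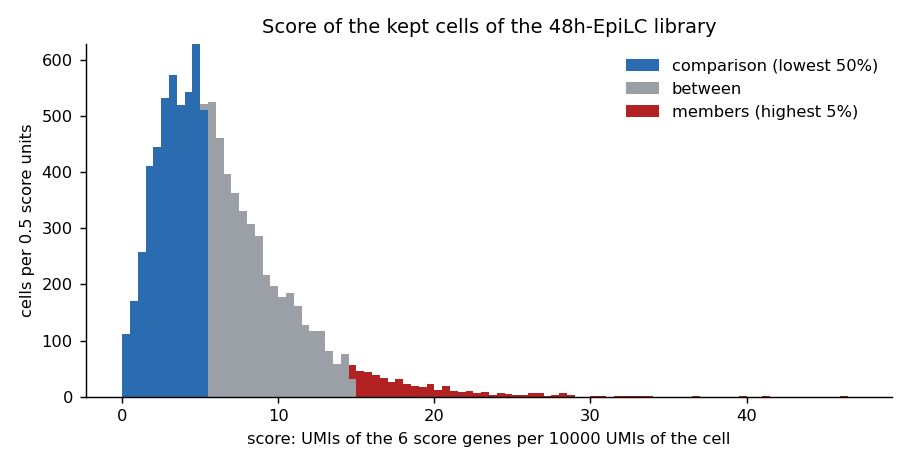
Histogram of the score (x axis, UMIs of the 6 score genes per 10000 UMIs of the cell) over the 9400 kept 48h-EpiLCs (y axis, cells per 0.5 score units), coloured by group. The members are the upper tail from 14.8 on, and the comparison cells lie at 5.49 and below, with no gap between the groups.

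Mdm2 contributed most to the choice. It made up 30.4% of the score UMIs of the members, with a median of 7 UMIs per member (0 to 42) and 1 per comparison cell, or 578 CPM (95% Poisson interval 560 to 597, counting error only) against 67.9 CPM. Ccng1 stood at 402 against 118 CPM, Cdkn1a at 338 against 43.7 CPM, and Phlda3 at 300 against 64.8 CPM. The lower-level Trp53inp1 stood at 167 against 29.3 CPM and Ddit4l at 119 against 14.6 CPM. All 6 genes were therefore higher, as the choice required of their sum. Members did not all owe their score to the same gene. Mdm2 gave the most UMIs in 246 of them, Ccng1 in 100, Cdkn1a in 72, Phlda3 in 33, Ddit4l in 10 and Trp53inp1 in 9. At least 1 UMI of every score gene was found in 232 members and of 5 of them in 172, while 17 members had 3 or fewer of the 6. Among comparison cells 140 had all 6.

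Each score gene was also measured in cells chosen by the other 5, so that its own UMIs had no part in the choice. Every one was higher in the newly chosen 5% than in the lowest 50%. Mdm2 was at 392 against 88.8 CPM (log2 ratio 2.13), Ddit4l at 85.4 against 20.6 CPM (2.00) and Cdkn1a at 244 against 62.0 CPM (1.96). Trp53inp1 was at 134 against 37.5 CPM (1.81), Phlda3 at 244 against 83.2 CPM (1.54) and Ccng1 at 328 against 146 CPM (1.16). Log2 ratios throughout are of CPM + 1. The cells chosen this way included 338 of the 470 members without Mdm2 and 381 to 426 without any other gene. Every score gene was thus higher in cells picked without it, but most of these cells were members already. The score genes were also chosen with earlier results of these data known, so this is no independent check of the name p53-active.

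Target genes of p53 outside the score were higher in the members with few exceptions. Of 49 measured genes of a list of known targets, 46 were higher, with a median log2 ratio of 0.91. The list was chosen with earlier results of these data known, so it is no independent check of the name p53-active. Of the 22 that reached 20 CPM over all kept cells, a filter that does not look at the groups, 22 were higher, median 0.88, and 8 (36.4%) were at least 2-fold higher. Among all 5535 genes kept by that filter, 50 (0.903%) were at least 2-fold higher, the median was 0.01, and 51.5% were higher. With the filter used for single genes, 20 CPM in members or in comparison cells, 17 of 35 targets were at least 2-fold higher against a background of 1.79% of 5864 genes, and none was at least 2-fold lower against 0.102%. That filter can keep a gene for its level in the members only, and 14 targets fell below it, 11 of them higher in the members. The 95% binomial interval of the ratio, counting error only, lay above 0 for 32 of the 35, against 26% of all genes compared. These intervals are of the plain CPM ratio without the added 1, so for genes of a few CPM they lie above the log2 ratio given.

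The targets that act on the cell cycle included Btg2 and Plk2, which had the highest ratios of all listed targets. Btg2, an antiproliferative partner of the Ccr4-Not complex, was at 121 CPM in members, 17.1 CPM in comparison cells (log2 ratio 2.75, interval 2.69 to 2.95). Plk2, a polo-like kinase, was at 62.9 against 10.3 CPM (2.50), and Sesn2, a stress-induced inhibitor of mTORC1, at 54.4 against 24.1 CPM (1.14). Gtse1, which acts in G2 and restrains p53, was at 101 against 54.9 CPM (0.86), and Psrc1, a spindle protein, at 156 against 90.9 CPM (0.77). All 9 measured genes of this role were higher, by a median of 0.77. Of the 7 kept by the filter on either group, 3 were at least 2-fold higher, against 1.79% of all genes compared.

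All 14 apoptosis genes were higher as well, by a median of 0.90. Of the 11 kept by the same filter, 5 were at least 2-fold higher, against 1.79% of all genes compared. Perp, a membrane protein of p53-dependent death, was at 41.2 against 7.57 CPM (2.30), and the death receptor gene Eda2r at 23.4 against 8.03 CPM (1.43). The BH3-only genes Bbc3 (PUMA) and Pmaip1 (NOXA) were at 61.2 against 24.6 CPM (1.28) and 90.3 against 47.7 CPM (0.91). Apaf1, the scaffold of the apoptosome, was at 25.1 against 11.3 CPM (1.09), and Ei24 at 119 against 58.4 CPM (1.01). Bax, the effector itself, was already high in comparison cells at 504 CPM and reached 577 CPM in members (0.19, interval 0.15 to 0.24).

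DNA repair genes were split. Polk, a translesion polymerase, was at 27.4 against 9.39 CPM (1.45) and Ercc5, an endonuclease of nucleotide excision repair, at 37.9 against 14.3 CPM (1.35). The damage recognition genes of the same repair pathway did not share this: Xpc had a log2 ratio of 0.19 (interval −0.06 to 0.45) and Ddb2, at 4.96 against 6.77 CPM, −0.38 (−1.01 to 0.07). Of the feedback genes, Ppm1d, the WIP1 phosphatase, was at 39.2 against 19.9 CPM (0.94) and the ubiquitin ligase Rchy1 had 0.21. The 19 metabolic and other targets had a median of 1.00 with 17 higher. Zfp365, a zinc finger gene, was at 60.9 against 11.8 CPM (2.28), Ptp4a3, a phosphatase, at 109 against 38.5 CPM (1.48), Dcxr at 54.4 against 19.4 CPM (1.44), the peptide transporter Tap1 at 28.0 against 9.73 CPM (1.44) and adenylate kinase Ak1 with a log2 ratio of 1.41. Rps27l, the most abundant of them, was at 1200 against 968 CPM (0.30). Gls2 (−0.47) and Pank1 (−0.86) were lower, both under the filter.

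**Figure D2:**
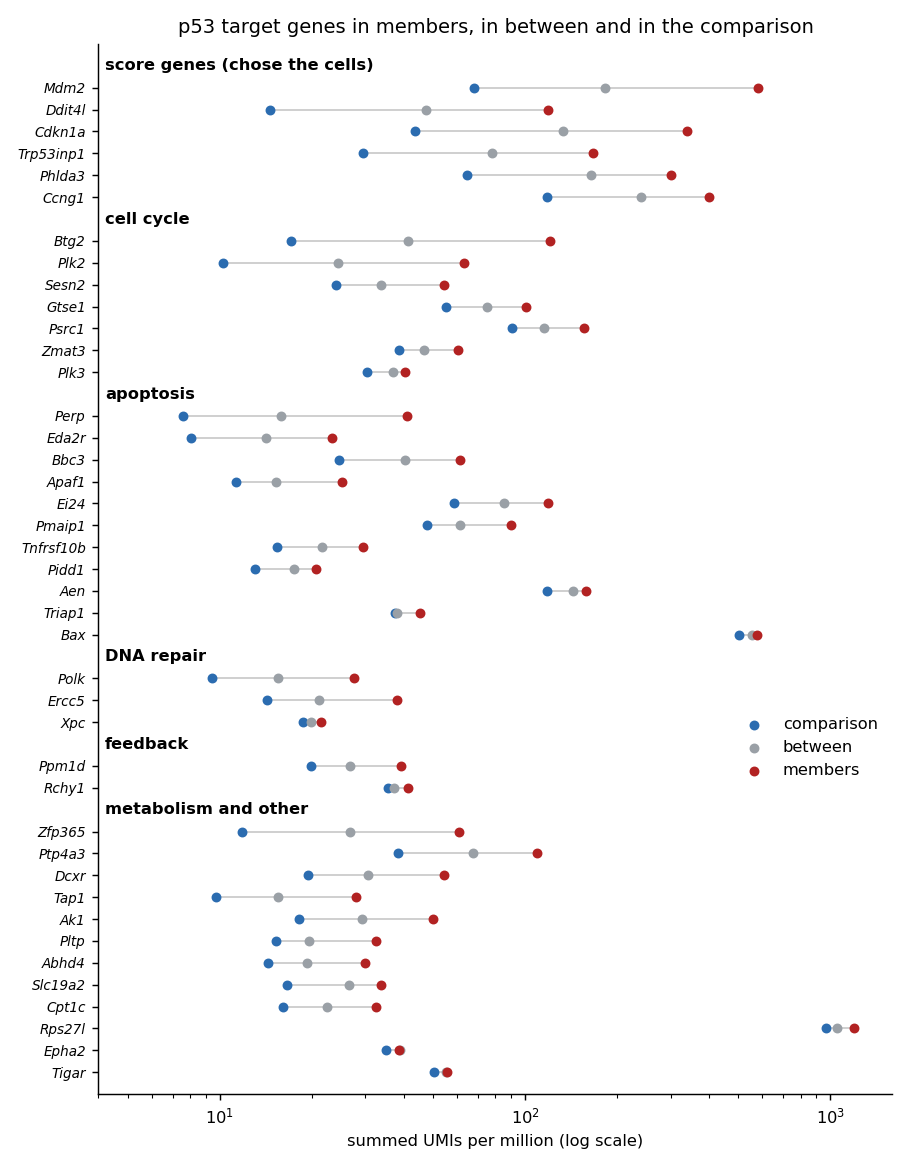
CPM (x axis, log scale) of the 6 score genes and of the 35 other p53 targets kept by the filter, by role, with a point each for comparison cells, the cells between and members. Members lie to the right of comparison cells for each gene drawn, by the widest distance outside the score for Btg2 (17.1 to 121 CPM) and by little for Bax (504 to 577 CPM).

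In single cells the 49 targets summed to 14.9 to 69.9 UMIs per 10000 in members, median 37.4, and to 9.20 to 59.4 in comparison cells, median 24.8. The groups overlapped, yet 95.1% of members lay above the median of the comparison cells and 308 (65.5%) above their 95th percentile. Without the abundant Rps27l and Bax the medians were 19.2 and 10.2, and 325 members (69.1%) lay above the 95th percentile.

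p53 mRNA itself differed little. Trp53 was at 263 CPM in members and 226 CPM in comparison cells (0.22, interval 0.15 to 0.29), and 13 genes of p53 and its regulators had a median of 0.13 over the 10 kept by the filter. Mdm4, the partner of MDM2 that blocks p53 activity, was the exception at 94.2 against 40.2 CPM (1.21, interval 1.10 to 1.35). Cdkn2a, whose ARF product inhibits MDM2, was at 79.3 against 58.4 CPM (0.43).

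Over all 5864 genes compared, 105 were at least 2-fold higher in the members and 6 at least 2-fold lower, and 85 of the 105 were on no list. The filter behind these counts can keep a gene for its level in the members only. Among the 5535 genes kept by their level over all kept cells, 50 were at least 2-fold higher and 6 at least 2-fold lower. Among the 15 highest of the 5864 were Btg2, Plk2, Perp and Zfp365 of the targets above. Neurod1, a proneural transcription factor, was at 28.0 against 2.86 CPM (2.91), and its gene overlaps Cerkl on the same strand, so the 2 genes may share reads. The homeobox gene Nkx2-9 was at 20.9 against 2.93 CPM (2.48), although 6 neural markers together summed to 55.9 against 46.3 CPM. Genes of the cell surface and cytoskeleton followed. Sdc4, a heparan sulfate proteoglycan, was at 183 against 37.4 CPM (2.26, interval 2.20 to 2.39), and the adhesion molecule Mcam at 29.9 against 6.34 CPM (2.07). The uncharacterised 1700007K13Rik was at 101 against 24.5 CPM (2.00), and Arap2 and Rtkn, which act on small GTPases, both had 1.88.

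Another 3 of the 15 were carried by very few cells. Gm8300 (3.50), Gm5039 (3.18) and Platr31 (3.18) had 96.9%, 93.8% and 92.4% of their member UMIs in 10 cells. Without the 2-cell-like cluster their log2 ratios were −0.14, 0.45 and 0.09. Platr31 also overlaps the p53 target Tigar on the opposite strand. Of the other genes past 2-fold, some are named here after their values had been seen: the TGF-beta ligand Nodal (106 against 45.6 CPM, 1.20) and its inhibitor Lefty1 (764 against 355 CPM, 1.10), Sfn (14-3-3 sigma, 96.8 against 41.2 CPM, 1.21), the CDK inhibitor Cdkn2b (20.6 against 7.66 CPM, 1.32), Rb1 (22.6 against 7.37 CPM, 1.50) and Gpx3, a glutathione peroxidase (29.0 against 8.82 CPM, 1.61).

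The lower genes were fewer, and several were closer to 0 within a line. Adm (9.91 against 25.6 CPM, −1.28), Pim2 (167 against 375 CPM, −1.16) and Sox11 (25.6 against 59.3 CPM, −1.18) led clusters of WT cells, of which members had fewer. When members were chosen within WT cells alone the ratios were −0.48, −0.73 and −0.50, and within KO cells −0.40, −0.26 and −0.89. Myc was lower in each of these, at 17.5 against 33.9 CPM in the whole library (−0.92), −1.08 within WT and −0.65 within KO cells. Spry4, a feedback inhibitor of FGF signalling, had −1.23, with −0.85 and −0.63 within the lines.

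The levels followed the score through its whole range. In cells between the lowest 50% and 75% of the score, from 75% to 90%, from 90% to 95% and in the members, Btg2 was at 31.6, 47.0, 78.8 and 121 CPM after 17.1 CPM in the lowest 50%. Neurod1 went from 2.86 CPM over 6.73, 12.3 and 17.2 to 28.0 CPM, and Myc down from 33.9 over 27.7, 23.7 and 21.7 to 17.5 CPM. Trp53 moved from 226 over 236, 248 and 254 to 263 CPM. The median of the 22 other targets, as log2 ratios to all kept cells, was −0.23, 0.05, 0.26, 0.45 and 0.60. Members were thus the end of a graded series in these genes. The mix of lines changed along it as well. KO cells were 42.0%, 63.3%, 73.0%, 72.5% and 72.9% of the annotated cells of these bins. The part of this mix in the levels was not tested.

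**Figure D3:**
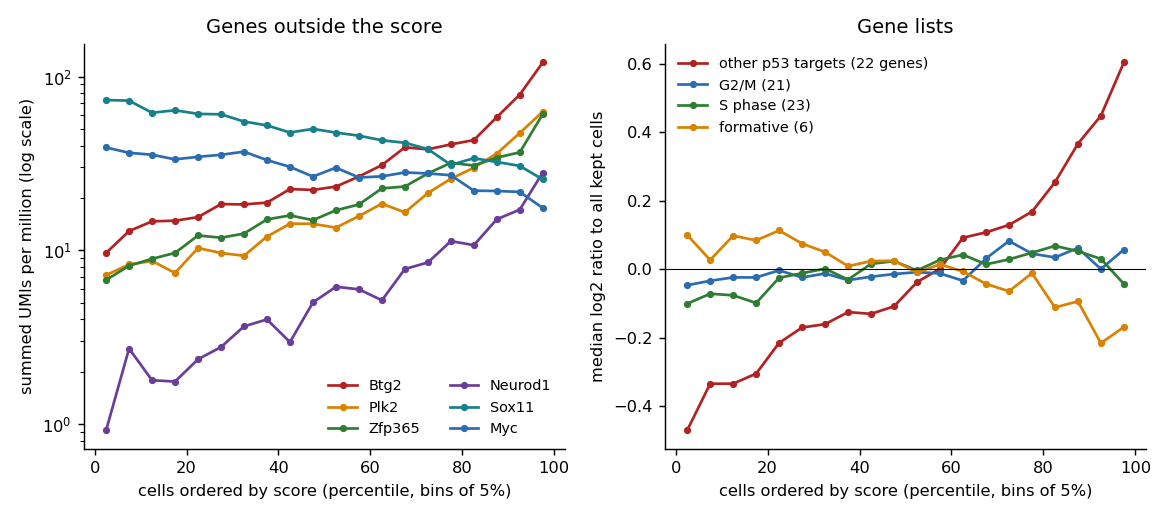
Cells were ordered by score in 20 bins of 5% (x axis, percentile). The left panel gives CPM of 6 genes outside the score on a log axis, and the right panel the median log2 ratio to all kept cells of 4 gene lists, where the line of the other p53 targets ends highest, at 0.60 in the members.

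Genes of proliferation differed little between the groups in the whole library. The 21 G2/M genes had a median of 0.10 (−0.019 under TMM scaling, which took the median of all genes from 0.02 to −0.10), with 9 intervals above and 3 below 0, and the 23 S-phase genes −0.02. Within WT cells the G2/M median was −0.41, with 15 of 21 intervals below 0 against 17.2% of all genes compared there, and within KO cells 0.09. The difference between the lines was not tested. The 6 formative genes had a median of −0.20, with 3 intervals below 0, where 20.7% of all genes had one, and 3 that included 0. The lowest were Lef1 (46.6 against 77.6 CPM, −0.72) and the DNA methyltransferase Dnmt3b (378 against 541 CPM, −0.52). These 2 were also lower within each line, by −0.52 and −0.44 in WT and by −0.88 and −0.44 in KO cells. The list was not lower throughout within WT cells, where 4 of the 6 intervals lay below 0 and 2 above, with Otx2 at 0.34. Within KO cells the 6 ratios ran from −0.88 to −0.17, with Otx2 at −0.48. Of 13 naïve genes 5 passed the filter, and their median of 0.07 had no stable direction, with 0.14 within WT and −0.24 within KO cells, −0.042 under TMM scaling and −0.14 without Mdm2 in the score. Nanog was at 18.0 against 24.1 CPM (−0.40, and 0.14 within WT and −0.35 within KO cells). Dppa3 was at 70.8 against 29.2 CPM (1.25), but at 618 CPM in the 2-cell-like members and 56.9 CPM in the others. With the 2-cell-like cells taken out of both groups its ratio was 0.94, below 2-fold. When members were chosen anew without that cluster, it was 1.10 in annotated cells, 1.02 within WT and 0.74 within KO cells.

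Other stress programmes had medians below 0 in the whole library, but not in every line. The median was −0.37 over 11 hypoxia genes, of which 9 intervals lay below 0, −0.27 over 10 genes of the amino-acid response, −0.13 over 8 immediate early genes and −0.06 over 6 heat shock genes. Within WT and KO cells in turn the medians were −0.11 and −0.22 for hypoxia, −0.32 and −0.09 for the amino-acid response, 0.17 and −0.05 for immediate early genes, and −0.12 and −0.10 for heat shock. An exception was Ddit4, a hypoxia and p53 target and the paralogue of Ddit4l, at 99.9 against 65.8 CPM (0.60), and at 1.00 within WT and 1.43 within KO cells. Jun had 0.70, with 0.72 and 1.51 within the lines. The 12 genes of the Ccr4-Not list kept by the filter had a median of 0.05. Of their intervals 3 lay above 0, where 26% of all genes had one, and 9 included 0. In this list Btg1 (41.7 against 19.4 CPM, 1.06) and Tob1 (22.6 against 13.7 CPM, 0.68), both adaptors of the deadenylases, were higher. The deadenylases Cnot8 (0.06, interval −0.09 to 0.21) and Cnot7 (−0.02, −0.20 to 0.16) had intervals that included 0. Within WT cells the median of the list was −0.05 and its highest ratio 0.90, and within KO cells 0.02 and 1.22. Of the remaining marker lists, contractile genes summed to 224 against 154 CPM, and germ cell genes to 112 against 55.0 CPM with Dppa3 the gene past the filter. Trophoblast genes summed to 116 against 75.8 CPM with Krt18 past it, but in annotated cells alone Krt18 was at 71.0 against 71.5 CPM (−0.01). Ribosomal protein genes had a median of −0.04.

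KO cells were more frequent among the members. Of annotated cells 72.9% of members were KO (314 of 431, 95% Clopper-Pearson interval 68.4 to 77.0), against 42.0% of comparison cells (40.5 to 43.6) and 54.9% of all. Put the other way, 7.12% of 4411 KO cells were members (6.38 to 7.92) and 3.23% of 3624 WT cells (2.68 to 3.86). The intervals did not overlap, but they cover the counting of cells and not the spread between cultures or KO clones, which 1 library cannot give. Levels of line-specific transcripts went with this: tdTomato was at 2.17 CPM in members and 3.80 CPM in comparison cells, and Y-linked genes at 103 and 56.5 CPM. In the ESC library the order was the other way, with 2.90% of KO and 4.01% of WT cells past the same rule. The summed score genes were at 742 CPM in KO and 498 CPM in WT 48h-EpiLCs, and at 382 and 415 CPM in ESCs. Stage and library cannot be told apart here. The lines also differed in more than Cnot8. WT cells carried the tdTomato reporter, and Y-linked transcripts were lower in every WT cluster than in any KO cluster. In the 48h-EpiLC library they were at 6.28 to 8.57 CPM in WT clusters and at 74.6 to 132 CPM in KO clusters. Loss of Cnot8 cannot be told apart from these differences between the lines, and its part in the share of members was not tested.

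Members were found in every one of the 13 clusters, between 0.487% and 29.4% of a cluster. In the larger WT clusters of 1960 and 1116 cells they made up 2.09% and 2.69%, but in a WT cluster of 548 cells led by the imprinted genes H19 and Peg3 they made up 8.39%. KO clusters held 4.26% to 10.2%, other than the 2-cell-like one. The lowest share was in an unassigned cluster of 411 cells with a median of 23513 UMIs. The highest, 29.4% (10.3 to 56.0), was in 17 unassigned cells led by Anxa1 and Krt8.

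**Figure D4:**
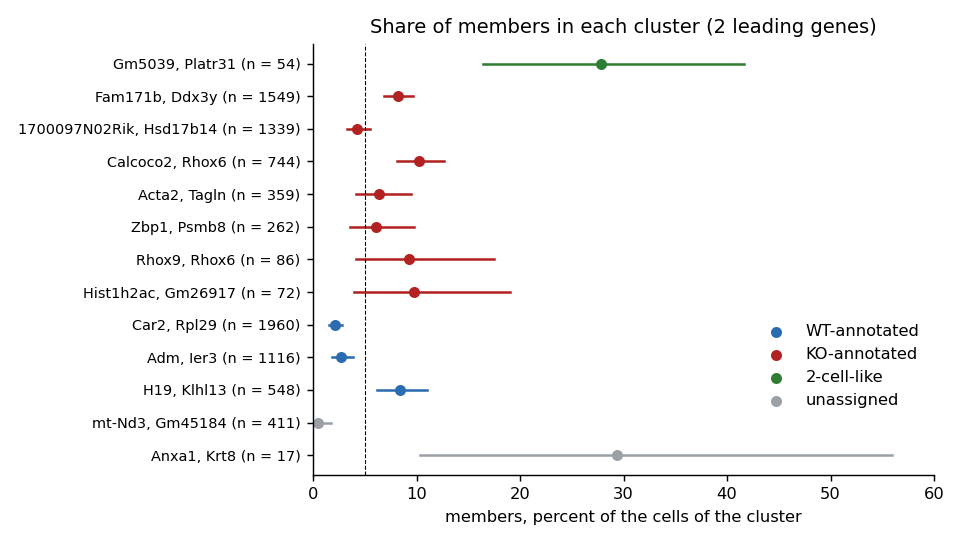
Share of members in each of the 13 clusters (x axis, percent of the cells of the cluster), with 95% Clopper-Pearson intervals as bars and the line annotation as colour. The dashed line marks the 5% that the rule chose of all cells, and the WT cluster led by H19 lies at 8.39% while the other WT clusters lie at 2.09% and 2.69%.

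The levels of the score genes in members of each line describe the choice and are given without a comparison. Cdkn1a was at 482 CPM in the 117 WT members and 294 CPM in the 314 KO members. Mdm2 was at 524 and 606 CPM, Ccng1 at 322 and 426 CPM and Phlda3 at 277 and 315 CPM. Trp53inp1 was at 180 and 166 CPM. Without Cdkn1a in the score, KO cells made up 78.6% of annotated members. Outside the score Btg2 was at 111 and 128 CPM and Sdc4 at 102 and 208 CPM.

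With members and comparison cells chosen anew within each line, the targets gave similar ratios. Within WT cells (181 members, 1812 comparison cells) the median of the other targets was 1.07, and 95 of 5720 genes (1.66%) were at least 2-fold higher. Within KO cells (221 and 2206) the median was 0.81, and 79 of 5983 (1.32%) were. At least 2-fold lower were 4 genes (0.0699%) and 1 gene (0.0167%). The WT and KO gene sets shared 48 genes, 50.5% of the first and 60.8% of the second, and 13 of these were on the target lists.

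In the ESC library, the rule chose 553 cells, of which 219 sat in clusters of other cell types, mostly feeder fibroblast-like, so that 12% of 6473 genes were at least 2-fold higher. With annotated WT and KO ESCs alone, 469 members (score 11.1 or more) were compared with 4686 cells, and the feeder markers summed to 8.94 CPM in members and 9.92 CPM in comparison cells. There 117 of 5870 genes (1.99%) were at least 2-fold higher, and the other targets had a median of 1.30, with 20 of 33 at least 2-fold higher. The matching comparison of annotated 48h-EpiLCs gave 104 genes (1.77%). The sets shared 70 genes, 67.3% of the 104 and 59.8% of the 117. All 104 were higher in ESC members, where the median log2 ratio over all 5870 genes was −0.04. The same score genes and the same filter were used in both libraries. Neurod1 (2.91 in the whole 48h-EpiLC library) had 3.26 in annotated ESCs, Nkx2-9 (2.48) had 2.78, Sdc4 (2.26) had 2.89 and Ddit4 (0.60) had 1.82.

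A set of 33 genes was at least 2-fold higher in the WT and KO cells of both libraries, where 1.66% (48h-EpiLC WT), 1.32% (48h-EpiLC KO), 2.71% (ESC WT) and 1.68% (ESC KO) of genes were. It held 12 of the listed targets, namely Ak1, Apaf1, Bbc3, Btg2, Dcxr, Ercc5, Perp, Plk2, Polk, Ptp4a3, Sesn2 and Zfp365. In that order of groups Plk2 had log2 ratios of 3.10, 2.24, 3.63 and 2.85. Of the 21 on no target list, Sdc4 had 2.01, 2.04, 3.15 and 2.70, the protease inhibitor Serpine2 1.67, 1.78, 2.46 and 2.18, and the TGF-beta co-receptor Eng 1.66, 1.15, 2.53 and 1.77. Susd6 had 1.22, 1.28, 1.50 and 1.80, and the ciliary transport gene Wdr35 1.50, 1.51, 2.05 and 1.86.

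**Figure D5:**
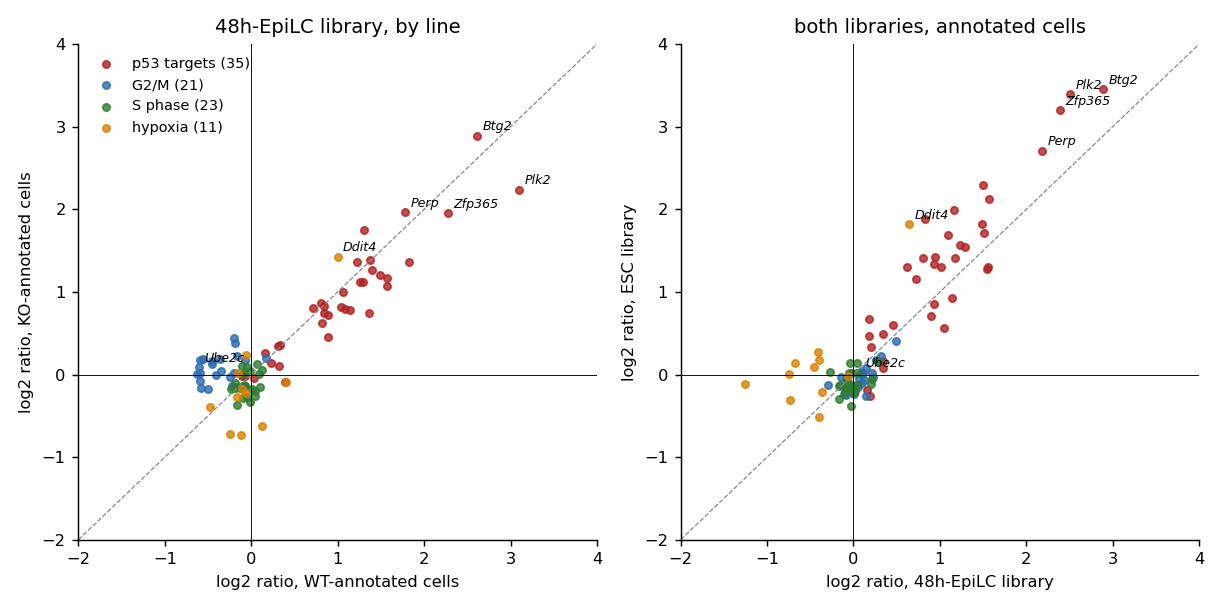
Log2 ratio of CPM + 1, members over comparison cells, for genes of 4 lists, with WT (x axis) against KO cells (y axis) of the 48h-EpiLC library on the left and annotated 48h-EpiLCs (x axis) against ESCs (y axis) on the right. Each point is a gene and the dashed line marks equal ratios. Plk2 lies at 3.10 and 2.24 on the left, and Btg2 has the highest ESC ratio, 3.45, on the right.

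The 2-cell-like cluster stood apart within the members. It had 54 cells, with Zscan4d at 322 CPM against 0.24 CPM in KO cells, and 15 of them (27.8%, 16.5 to 41.6) were members. Of the genes that chose them, Ddit4l was at 756 CPM in the 2-cell-like members and 103 CPM in the other members, Mdm2 at 356 and 584 CPM and Ccng1 at 412 and 401 CPM. Over the whole cluster Ddit4l was at 348 CPM and 39.1 CPM in KO cells, and Mdm2 at 202 and 180 CPM. The other targets had a median log2 ratio of −0.20 over KO cells, close to −0.22 for all genes, and 4 of 30 were at least 2-fold higher where 6.07% of 6160 genes were. Btg2 was among the higher ones at 117 against 37.2 CPM, and Trp53 was lower at 188 against 262 CPM. Within each line, where this cluster was set aside, the 2-cell-like markers summed to 0.887 against 0.850 CPM in WT and to 1.27 against 0.821 CPM in KO cells.

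The number of genes past 2-fold depended on how members were drawn. It was 52 with the score computed after thinning each cell to 5000 UMIs, 48 with the highest 10% as members and 44 with all other cells as comparison, and the median of the other targets was between 0.73 and 1.08 over all alternatives.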

How the data were processed

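The deposited values were counts of UMIs per gene and barcode, made by the authors using Cell Ranger 3.0.2 (Seurat 4 is also named in the processing notes) and mm10 plus the tdTomato coding sequence. No correction for free RNA is stated, and strand use in counting is not given in the sources used here. Each matrix had 32286 features, of which 32235 (99.8%) were found in GENCODE M21. The members and gene lists were chosen with earlier results of these data known.

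Kept cells had 1000 or more genes and no more than 10% mitochondrial UMIs. UMIs were summed over the cells of a group and scaled to 1000000 (CPM). The log2 ratio used a pseudocount of 1 CPM, and genes with 20 CPM in either group were compared, score genes excepted. Named were all list genes, the 15 highest and the 10 lowest, of which 1 is not reported here. Intervals (95%) were exact Poisson for CPM, binomial for ratios and Clopper-Pearson for shares, and cover counting error only. No test was run, since each stage had 1 library.

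Doublets were scored by a Scrublet-like simulation (expected rate 0.1, 2 simulated doublets per cell), and the top 10% were left out of annotation but could be members, as 17 were (3.62%, against 8.17% of comparison cells). The other cells were clustered with scanpy 1.11.5 (2000 variable genes, 30 components, 15 neighbours, Leiden resolution 1.0, leidenalg 0.10.2), without p53 target, pluripotency, Ccr4-Not, Y-linked, tdTomato, mitochondrial and ribosomal genes. Clusters of 50 or more cells were called WT at 0.5 or more and KO at 0.2 or less of the highest tdTomato share. Clusters with 3 or more markers of another cell type at 4-fold and 20 CPM were set aside. Scripts (Python 3.11.15, numpy 2.4.6, scipy 1.17.1) were tested on simulated data. Alternatives covered the score, the groups, the filter, the scaling and the annotation.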

Additional observations from a re-analysis of the deposited data

Results flagged for a closer look

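Of 178 named and list genes, 5 went in opposite directions when members were chosen within WT and within KO 48h-EpiLCs, each with an interval clear of 0. How many of all genes compared did so was not counted, so this number has no background. No difference between lines or libraries was tested, and each rests on 1 library. The 4 mitotic genes were lower in WT and higher in KO members. The log2 ratios were −0.56 and 0.19 for Cenpe, −0.45 and 0.16 for Cenpf, −0.37 and 0.18 for Mki67, and −0.61 and 0.09 for Ube2c, and the median over G2/M genes was −0.41 and 0.09. Otx2, a formative transcription factor, had 0.34 in WT and −0.48 in KO cells.

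Between annotated 48h-EpiLCs and annotated ESCs, 12 of the 178 genes went in opposite directions, again without a count over all genes compared. Lower in 48h-EpiLC members and higher in ESC members were Car2 (−0.93 and 0.51), the immediate early genes Egr1 (−0.23 and 0.76) and Dusp1 (−0.44 and 0.47), the hypoxia genes Slc2a1 (−0.46 and 0.09) and Ero1l (−0.41 and 0.27), Usp7, a deubiquitinase of p53 and MDM2 (−0.23 and 0.08), and Hsp90aa1 (−0.14 and 0.06). Higher in 48h-EpiLC and lower in ESC members were the Y-linked Eif2s3y (0.75 and −0.42), Tubb3 (0.64 and −0.22), Cnot10 (0.22 and −0.19), Mcm6 (0.21 and −0.12) and the p53 target Tigar (0.19 and −0.26). Eif2s3y moved with the share of KO cells, and its part in the other genes was not tested.

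The barcodes that were not kept also carried score UMIs. The 6 genes summed to 555 CPM in those of the 48h-EpiLC library, against 634 CPM in kept cells, and to 483 CPM against 448 CPM in the ESC library.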

How the results depend on the processing

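Of 220 values under an alternative, 194 moved by less than the spread used as the limit and 26 by more. The median of the other targets, the only one whose interval lay clear of 0, did not change sign, but some medians near 0 did. The count of genes at least 2-fold higher (105) was 52 with the score thinned to 5000 UMIs, 48 with the highest 10% as members, 44 with all other cells as comparison, 244 with a filter of 5 CPM and 410 with none. The count at least 2-fold lower (6) was 2 under each of the first 3 of these, 13 and 23 under those filters, 12 with the highest 2% as members, 1 without Mdm2 and 3 without Ccng1 in the score, 1 in KO cells alone, and 0 with comparison cells weighted to the line mix of the members, an alternative added after seeing the data that left 73 higher genes. The median of the other targets moved past its limit once, to 0.73 with all other cells as comparison. The G2/M median (0.10) was −0.41 in WT cells and −0.019 under TMM, which took the median of all genes from 0.02 to −0.10. The S-phase median (−0.02) was 0.034 with the highest 10%, −0.072 in WT and −0.15 in KO cells, −0.14 under TMM, −0.069 as a mean of per-cell CPM and −0.13 with weighting. The naïve median (0.07) turned to −0.24 in KO cells, −0.14 without Mdm2, −0.042 under TMM and −0.32 with weighting, within its wide limit. The KO share (72.9%) was 78.6% without Cdkn1a in the score and 95.4% from tdTomato and Y-linked UMIs without clusters, where comparison cells had 89.2%. Calls without clusters needed a tdTomato UMI in the cell for WT, and gave 14 WT and 290 KO members. The cause of the moves above was not tested. No paired analysis was possible because each stage had 1 library and no replicate could be left out.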
